A study of Mus musculus with 40 samples.

Results

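The genes described here are the NR4A nuclear receptors (Nr4a1, Nr4a2 and Nr4a3), the early growth response factors Egr1, Egr2 and Egr3, their corepressor Nab2 and the HMG-box factor Tox. They were taken by gene symbol from the expression table, so that these 8 genes of the 21950 in it are covered whatever their level, and 7 of them reached 10 normalized counts in 3 or more of the 24 RNA-seq libraries and could be tested. Only Egr3 was too low. The libraries fell into 8 groups with 3 replicates each. Conventional T cells (Tconvs) and thymus-derived regulatory T cells (tTregs) were sorted and were resting or activated, by which the study means stimulated through the T cell receptor. Induced regulatory T cells (iTregs) were resting, restimulated, or restimulated with the ORAI channel inhibitor CM-4620 or with cyclosporin A (CsA). Tconvs and tTregs came from spleens of Foxp3-GFP reporter mice aged 2 to 4 months, and sorting used the reporter. iTregs were made from naive CD4+ T cells of mice aged 6 weeks by 4 days of culture on 0.5 μg per ml anti-CD3 and 1 μg per ml anti-CD28 with 2 ng per ml TGF-β and 200 U per ml IL-2. They were then sorted on a Foxp3 reporter and kept for 1 day in IL-2 alone, and restimulation was with anti-CD3 and anti-CD28. C57BL/6 was the stated background of the mice. How long cells were stimulated before the RNA was taken is not given in the sources used here, and neither are the doses of both inhibitors in these libraries. The labels of one inhibitor group name only an ORAI inhibitor, which is taken here as CM-4620, the ORAI inhibitor the study pairs with CsA. Nothing in the labels says that the 3 replicates of a group are separate animals or cultures, so that p-values measure the spread between these libraries, which may be technical.

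Engagement of the T cell receptor (TCR) opens calcium release-activated ORAI channels, and the calcium that enters activates the phosphatase calcineurin and with it the transcription factor NFAT. CM-4620 blocks the channel and CsA blocks calcineurin. NR4A and EGR genes are immediate early genes of this signal in T cells, and Nr4a1 is widely used as a reporter of recent TCR signaling. NR4A receptors act without a known ligand, sustain Foxp3 in regulatory T cells and take part in T cell exhaustion. EGR2 and EGR3 are zinc finger factors that restrain T cells after stimulation and were first described there in anergy, NAB2 binds EGR proteins and represses their targets, and TOX is needed for the exhausted state of chronically stimulated CD8+ T cells. The comparisons below ask which of these genes answered stimulation in each cell type, how high they stood at rest, and what the inhibitors left of the answer.

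Values are normalized counts, that is reads per gene divided by the library's size factor. Depth ran from 5256800 to 15685234 reads per library (median 10801942.5). A floor of 3 reads was worth 2.12 to 5.45 normalized counts, depending on the library, and covers counting error only. Foxp3 was at 7218 to 7767 normalized counts in resting tTregs, at 1178 to 1338 in resting iTregs and at 9.65 to 11.3 in resting Tconvs, and the summed level of Cd3e, Cd3d and Cd4 was 10562 to 23678 over all libraries. The B cell marker Cd79b was at 85.4 to 126 normalized counts in tTregs and at 5.27 to 36.9 in all other groups. Cd79a was highest in resting Tconvs, at 14.9 to 22.6, and was at 1.81 to 14.3 in tTregs, and Ms4a1 and Pax5, which also mark B cells, were at 0 in every library. The summed level of 3 NK markers was 281 to 308 in activated Tconvs against 0 to 44.3 elsewhere. Eomes, a factor that T cells also express, made up 277 to 306 of it, while Ncr1 was at 0 to 1.42 and Klrb1c at 0 to 2.12 there, against 0 to 5.63 and 16.7 to 30.9 in resting Tconvs. The part of these markers in the results below was not tested. In bulk RNA, fewer cells of a type and less RNA per cell cannot be told apart. A gene was called changed at an adjusted p below 0.05 with a log2 fold change beyond 0.5 in either direction, from limma on log2(normalized count + 1), with Benjamini-Hochberg adjustment over all 11725 genes tested. This scale understates changes of genes at low counts.

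In the mouse genome (GRCm38, GENCODE gene models), Nr4a1 lies on chromosome 15 at 101254269 to 101274795 on the plus strand, Nr4a2 on chromosome 2 at 57106830 to 57124003 on the minus strand, and Nr4a3 on chromosome 4 at 48045153 to 48086447 on the plus strand. Egr2 is on chromosome 10 at 67535475 to 67542188 (plus), Egr3 on chromosome 14 at 70077203 to 70082614 (plus), and Tox on chromosome 4 at 6686353 to 6991557 (minus). Nab2, on chromosome 10 at 127660918 to 127668568 on the minus strand, shares 42.2% of its exon bases with the oppositely oriented genes Stat6, Nemp1 and Gm16229. The library protocol does not keep strand, so reads there cannot be given to Nab2 or Stat6 by position alone, and Nab2 values are uncertain for this reason. Stat6 stood at 1565 to 2941 normalized counts, above Nab2 in every library. None of the exon bases of the NR4A and EGR genes overlapped another gene.

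The stretches before the start sites of the 4 genes that rose on activation are shown with a short motif that recurs in them. The Egr2 stretch was itself picked among 5 RefSeq starts for its matches, and the windows of its first and second starts hold no TGACG, the motif in question. RefSeq promoter entries (GRCm38.p6) were found for 5 members, Nr4a1, Nr4a2, Nr4a3, Egr2 and Nab2. Within 250 bases before the start, each NR4A gene held 4 copies of TGACG on either strand, the core of the cyclic AMP response element (CRE) that CREB and ATF proteins bind. Among all 32851 mouse promoter windows of this length, 17.8% held at least 1 copy and 0.137% held at least 4. The 4-copy measure was chosen after the NR4A matches were seen. Capitals mark TGACG on either strand and, in Egr2, also the CArG box, the element that serum response factor binds. Only bases outside annotated exons are printed, 5′ to 3′ on the gene's strand.
Nr4a1, chr15:101266596-101266845, plus strand, in an intron of a longer gene model: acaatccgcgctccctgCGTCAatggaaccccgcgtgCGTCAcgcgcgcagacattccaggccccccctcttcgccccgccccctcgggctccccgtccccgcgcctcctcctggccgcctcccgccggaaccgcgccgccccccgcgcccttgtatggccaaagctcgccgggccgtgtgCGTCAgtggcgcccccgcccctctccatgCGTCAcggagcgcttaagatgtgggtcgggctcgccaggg
Nr4a2, chr2:57124004-57124253, minus strand, upstream of the gene: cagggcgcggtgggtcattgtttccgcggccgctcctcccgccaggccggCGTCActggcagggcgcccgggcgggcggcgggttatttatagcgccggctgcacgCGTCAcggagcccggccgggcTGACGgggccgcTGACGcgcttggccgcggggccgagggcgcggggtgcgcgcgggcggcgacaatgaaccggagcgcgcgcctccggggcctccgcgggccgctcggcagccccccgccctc
Nr4a3, chr4:48045055-48045152, plus strand, upstream of the gene, with 3 of its 4 copies: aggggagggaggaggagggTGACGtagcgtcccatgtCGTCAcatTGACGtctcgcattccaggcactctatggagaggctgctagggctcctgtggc
Egr2, chr10:67537619-67537868, plus strand, the third of 5 RefSeq starts: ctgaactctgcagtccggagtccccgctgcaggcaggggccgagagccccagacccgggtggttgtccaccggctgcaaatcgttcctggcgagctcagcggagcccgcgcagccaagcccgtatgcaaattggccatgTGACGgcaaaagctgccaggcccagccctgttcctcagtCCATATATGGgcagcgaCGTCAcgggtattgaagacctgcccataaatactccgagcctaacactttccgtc
The Egr2 stretch held 2 copies of TGACG and 1 CArG box, a box that 1.47% of all windows held. Nr4a1 also held the EGR site GCGGGGGCG, on the minus strand 60 to 52 bases before its start, which 2.57% of windows held. The NFAT core GGAAA, found in 55.6% of windows, was present in the Nr4a2 window and in most Egr2 windows and not in those of Nr4a1 and Nr4a3. The full CRE TGACGTCA, the AP-1 site TGACTCA, the second EGR site GCGTGGGCG and the NR4A site AAAGGTCA were in none of the windows of these 5 members, against 1.55%, 4.46%, 0.536% and 1.34% of all windows. A match is a description of these letters and says nothing of binding in these cells.

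**Figure D1:**
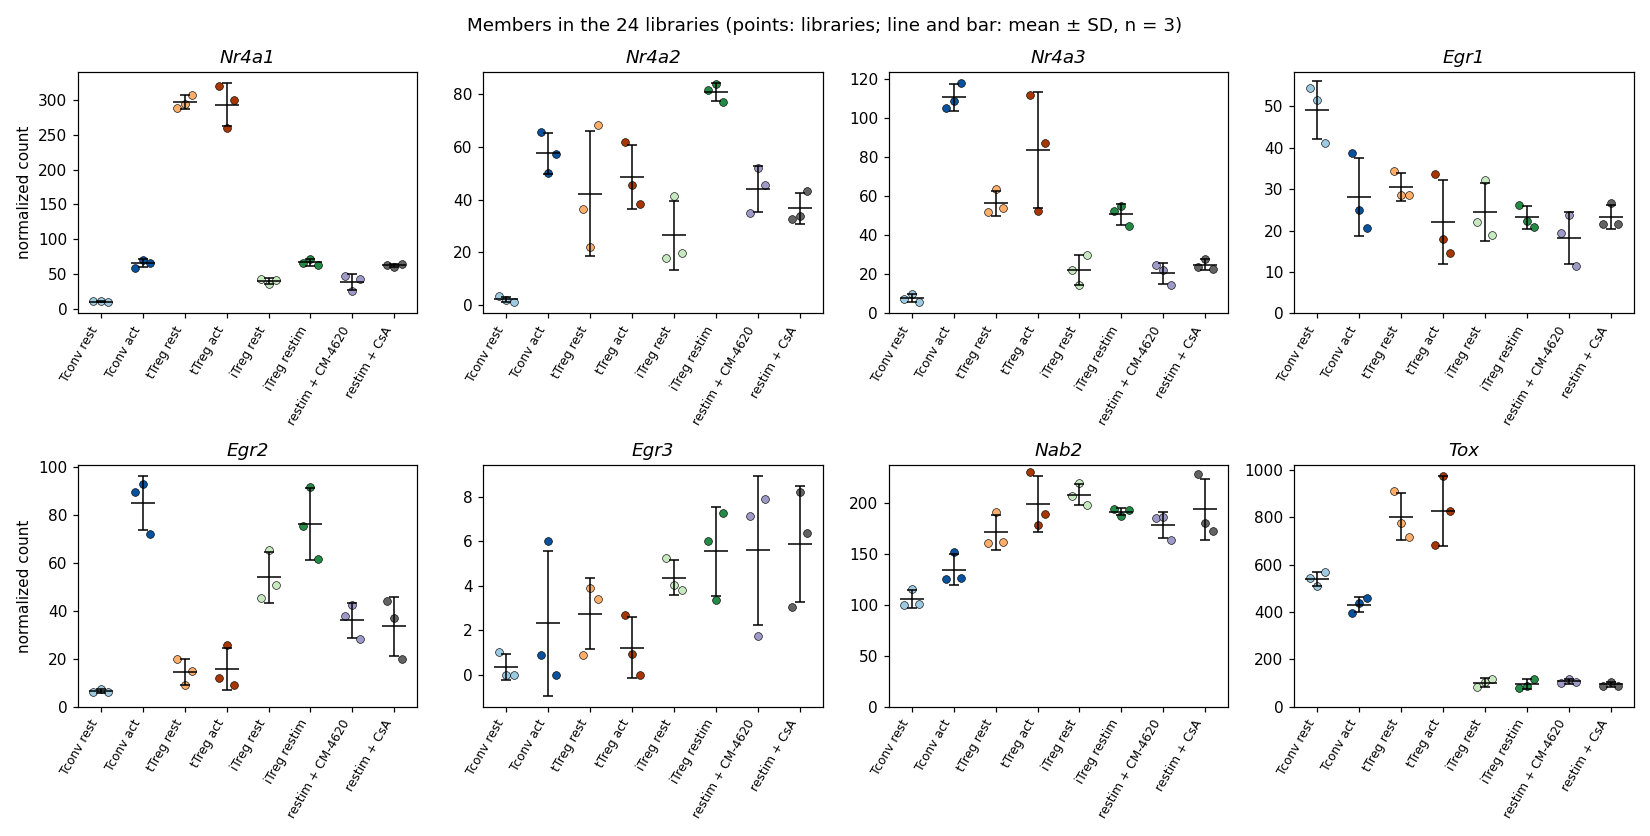
Normalized counts of the 8 genes (vertical axis, linear, its range differing between panels) in the 24 libraries by group; points are libraries, the line and bar are the mean ± SD of 3. Nr4a1 sits near 300 in both tTreg groups, Egr2 is high in activated Tconvs and in iTregs, and Tox is near 100 in all iTreg groups.

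Nr4a1, which encodes NUR77, stood highest in tTregs whether they were resting or activated. Resting Tconvs held 11.3, 11.3 and 9.65 normalized counts, and resting tTregs held 288, 295 and 308. That is a 25.4-fold difference on the fitted scale (log2 4.67 ± 0.17 SE, adjusted p = 1.28e-15, limma), and no library overlapped between both groups. Resting iTregs held 43.2, 35.3 and 41.7 normalized counts, between both, with 3.49-fold more than resting Tconvs (adjusted p = 4.08e-09) and 7.27-fold less than resting tTregs (adjusted p = 2.19e-12). In order of group means, both tTreg groups came first and did not differ by the test. Restimulated iTregs, activated Tconvs and CsA-treated iTregs followed with no called difference between neighbours, then resting and CM-4620-treated iTregs, and resting Tconvs last. The steps from activated tTregs to restimulated iTregs (log2 2.11), from CsA-treated to resting iTregs (0.64) and from CM-4620-treated iTregs to resting Tconvs (1.72) passed the test.

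Nr4a2 (NURR1) and Nr4a3 (NOR1), the other two receptors, were also lowest in resting Tconvs. Nr4a2 was at 3.09, 1.88 and 0.878 normalized counts there, 6 reads in all and at or under the floor. It was at 36.3, 22.1 and 68.3 in resting tTregs and at 17.9, 41.4 and 19.7 in resting iTregs. By summed reads these are 22.5 times (95% exact interval 10.0 to 62.6, counting error only) and 13.7 times (6.02 to 38.3) the resting Tconv level. Nr4a3 was at 7.20, 9.38 and 5.27 in resting Tconvs, 51.7, 63.6 and 53.5 in resting tTregs, and 22.1, 14.1 and 29.6 in resting iTregs. All 3 groups were apart for Nr4a3, with tTregs 7.03-fold (adjusted p = 1.81e-08) and iTregs 2.72-fold (adjusted p = 7.24e-05) above Tconvs. Resting iTregs were 2.59-fold below resting tTregs in Nr4a3 (adjusted p = 1.29e-04), whereas the libraries of both overlapped in Nr4a2 (log2 difference -0.61, adjusted p = 0.116; called after quantile normalization, adjusted p = 0.0363).

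The EGR genes had another order. Egr2 stood at 6.17, 7.50 and 6.14 normalized counts in resting Tconvs, 20.0, 9.08 and 14.8 in resting tTregs, and 45.3, 65.6 and 50.8 in resting iTregs. Thus resting iTregs were 7.16-fold above resting Tconvs (adjusted p = 9.27e-08) and 3.63-fold above resting tTregs (adjusted p = 3.16e-05). The smaller difference of tTregs over Tconvs (1.97-fold, adjusted p = 0.0159) was not called without resting tTreg replicate 1 (adjusted p = 0.0881) or after quantile normalization (adjusted p = 0.311). Egr3 was near absence everywhere, with 0 to 8.21 normalized counts over the 24 libraries and 1 read in the 3 resting Tconv libraries together. With no filter on low values, limma called it in 2 comparisons. It was higher in resting iTregs than in resting Tconvs (14 reads against 1, log2 2.07 ± 0.62 SE, adjusted p = 0.00691) and in restimulated iTregs than in activated tTregs (17 reads against 3, log2 1.71 ± 0.62, adjusted p = 0.024). These levels are near the floor, and the size of such a fitted change depends on the pseudocount.

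Egr1, on chromosome 18 at 34859823 to 34864984, was the only EGR gene highest in resting Tconvs, at 54.5, 51.6 and 41.3 normalized counts. Resting iTregs held 22.1, 32.3 and 19.0, a 2.00-fold lower level (adjusted p = 0.00469). Resting tTregs held 34.5, 28.5 and 28.5, apart from Tconvs but short of the call (log2 -0.67, adjusted p = 0.0648). That difference passed in edgeR (adjusted p = 0.0458) and after quantile normalization (0.012). No neighbours in its order of 8 groups differed by the test.

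Nab2 and Tox were not called on stimulation in any of the cell types, and both differed between cell types at rest. Nab2 was at 99.8 to 115 normalized counts in resting Tconvs, 161 to 191 in resting tTregs and 198 to 219 in resting iTregs, where tTregs were 1.62-fold (adjusted p = 6.54e-05) and iTregs 1.97-fold (adjusted p = 3.17e-07) above Tconvs. Tox had the reverse placing of iTregs. It was at 544, 509 and 568 in resting Tconvs, 912, 775 and 719 in resting tTregs, and 82.2, 103 and 118 in resting iTregs. Resting iTregs were therefore 5.35-fold below Tconvs (adjusted p = 5.96e-12) and 7.90-fold below tTregs (adjusted p = 2.13e-13), and iTreg libraries of all treatments lay at 77.6 to 118. The tTreg excess over Tconvs was 1.48-fold (adjusted p = 0.00428), and without resting tTreg replicate 1 it fell under the fold threshold (log2 0.47).

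In counts, 6 of the 7 tested members were higher in resting tTregs than in resting Tconvs and none lower (39.3% of all tested genes were called there). Between resting iTregs and resting Tconvs all 7 were called, 5 higher and 2 lower, where the background was 64.3%. Between resting iTregs and resting tTregs 4 were called, Egr2 higher and Nr4a1, Nr4a3 and Tox lower, against a background of 64%. Since most genes differed in the last 2 comparisons, the members' counts there are no result about the members. These comparisons share their resting groups.

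Activation of Tconvs raised all 3 NR4A genes and Egr2, and lowered Egr1. Nr4a1 went from 11.3, 11.3 and 9.65 to 59.3, 70.7 and 66.5 normalized counts, a 5.66-fold rise (log2 2.501 ± 0.17 SE, adjusted p = 3.87e-11). Nr4a3 reached 105, 109 and 118, 13.7-fold above rest (log2 3.78 ± 0.28, adjusted p = 1.02e-10). Nr4a2 reached 65.5, 50.0 and 57.3, which by summed reads was 30.5 times the resting level (95% exact interval 13.8 to 83.9, counting error only; adjusted p = 4.30e-10 in limma). Egr2 reached 89.8, 93.1 and 72.2, an 11.3-fold rise (log2 3.50 ± 0.33, adjusted p = 6.53e-09). For these 4 genes the activated libraries lay above every resting library.

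Egr1 went the other way, to 38.6, 25.01 and 20.5 normalized counts in activated Tconvs (log2 -0.83 ± 0.30 SE, adjusted p = 0.0201). That call was lost without resting Tconv replicate 1 or 2 or activated Tconv replicate 2 or 3, where the adjusted p was 0.0539 to 0.103. Nab2 moved by log2 0.35 ± 0.12 to 125, 152 and 127, under the fold threshold (adjusted p = 0.0185). Tox was at 396, 437 and 459, below every resting library but not called (log2 -0.33 ± 0.16, adjusted p = 0.0724). In all, 5 of 7 tested members were called, where 50.3% of all tested genes were.

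None of the 7 tested members was called on activation of tTregs, against 23.2% of all genes tested. This share, also given for the gene lists below, comes from the fit of all libraries. When only the groups compared were fitted, it was 11.9%, so the background here depends on the fit. None of the members had an unadjusted p under 0.05 in limma, and neither edgeR nor DESeq2 called any. Nr4a1 was at 321, 259 and 300 normalized counts after activation, on both sides of its resting libraries, and its 95% interval of log2 -0.38 to 0.33 leaves out the Tconv response. Nr4a3 was at 112, 52.0 and 87.2 (log2 0.50 ± 0.28, adjusted p = 0.156), with activated replicate 2 inside the resting range. Without that library the rise was called (log2 0.81, adjusted p = 0.0233). Nr4a2 was at 61.9, 45.4 and 38.1 and Egr2 at 12.1, 25.5 and 9.08, both overlapping rest, with intervals of -0.41 to 1.04 and -0.66 to 0.71. Egr1 was at 33.7, 17.98 and 14.5 (log2 -0.53 ± 0.30, adjusted p = 0.165), and without activated tTreg replicate 1 its fall was called (log2 -0.87, adjusted p = 0.0289). Nab2 (log2 0.21, interval -0.04 to 0.47) and Tox (0.04, -0.29 to 0.36) moved little. The tTreg libraries held 5256800 to 9893053 reads, and pairs of their replicates differed by 13.8 to 39.4 times the counting variance, against 2.79 to 17.6 times in the other groups.

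Restimulation of iTregs raised the 3 NR4A genes alone among the members. Nr4a1 went from 43.2, 35.3 and 41.7 to 66.5, 71.7 and 62.7 normalized counts, a 1.66-fold rise (log2 0.73 ± 0.17 SE, adjusted p = 0.00448). Nr4a2 rose 3.21-fold to 81.6, 84.0 and 77.2 (log2 1.68 ± 0.35, adjusted p = 0.00155), which was the highest mean of this gene in the series. Nr4a3 rose 2.33-fold to 52.4, 54.9 and 44.5 (log2 1.22 ± 0.28, adjusted p = 0.00313). In each of the 3 genes the restimulated libraries lay above all resting ones, and 3 of 7 tested members were called where 10.4% of all tested genes were.

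Egr2, already high at rest, was at 75.5, 91.9 and 61.8 normalized counts after restimulation and overlapped the resting libraries (log2 0.49 ± 0.33 SE, adjusted p = 0.345). Egr1, Nab2 and Tox were within log2 0.12 of rest, with 95% intervals inside -0.67 to 0.57. Nab2 was at 187 to 194 and Tox at 77.6 to 118 after restimulation.

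**Figure D2:**
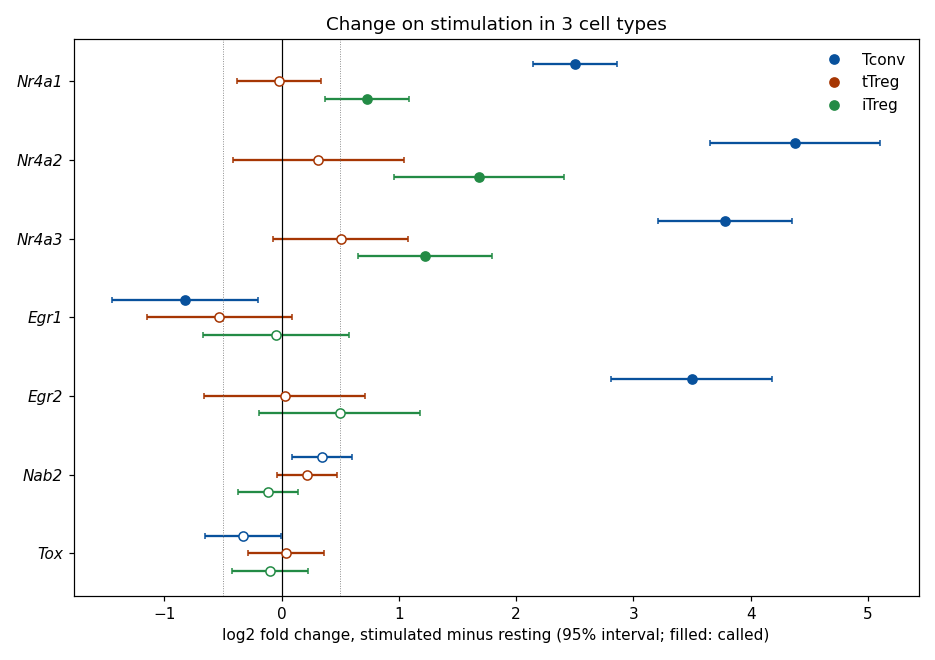
Log2 fold changes from rest to stimulation (horizontal axis) of the 7 tested members in Tconvs, tTregs and iTregs, with 95% intervals; filled points passed the test and dotted lines mark 0.5. The 4 Tconv points at the right are Nr4a1, Nr4a2, Nr4a3 and Egr2, at 2.501 to 4.38, and no tTreg point is filled. The place of the Tconv Nr4a2 point depends on the pseudocount, as resting Tconvs held 6 reads of it.

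The difference between responses was tested directly. The response of tTregs was smaller than that of Tconvs in Nr4a1 (log2 -2.52 ± 0.24 SE, adjusted p = 3.13e-08), Nr4a2 (-4.06 ± 0.49, 9.10e-07), Nr4a3 (-3.28 ± 0.39, 6.61e-07) and Egr2 (-3.47 ± 0.47, 3.54e-06), 4 of 7 members against a background of 36.6%. The response of iTregs was smaller than that of Tconvs in the same 4 genes, with log2 differences of -1.77 in Nr4a1, -2.69 in Nr4a2, -2.56 in Nr4a3 and -3.002 in Egr2 (adjusted p 1.04e-04 or lower; background 44.2%). Resting Tconvs held 6 Nr4a2 reads in all, so the size of both Nr4a2 differences from Tconvs depends on the pseudocount. In iTregs against tTregs the response was larger in Nr4a1 (0.75 ± 0.24, adjusted p = 0.0254) and Nr4a2 (1.37 ± 0.49, adjusted p = 0.0438), 2 of 7 members against 21.3%. The Nr4a2 call was lost in 9 of the 12 fits that left out 1 library and the Nr4a1 call in 3, with adjusted p of 0.0524 to 0.124 in those fits. The Nr4a3 difference was not called (0.72, interval -0.09 to 1.53). All 3 tests share groups with one another.

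Once stimulated, the cell types lay closer in some genes. Restimulated iTregs and activated Tconvs overlapped in Nr4a1 (log2 difference 0.03, interval -0.32 to 0.39) and Egr2 (-0.16, -0.85 to 0.53), while iTregs were 2.17-fold lower in Nr4a3 (adjusted p = 0.00146), 4.57-fold lower in Tox (adjusted p = 8.99e-11) and 1.43-fold higher in Nab2 (adjusted p = 0.00118). These were 3 of 7 members, where 44.3% of genes were called. The Nab2 value lay close to the fold threshold and fell under it without activated Tconv replicate 1 (log2 0.46) or 3 (0.47), as it did in edgeR (0.42) and after quantile normalization (0.44). Activated tTregs exceeded activated Tconvs 4.42-fold in Nr4a1 (adjusted p = 7.10e-10), 1.90-fold in Tox and 1.47-fold in Nab2, and were 5.63-fold lower in Egr2 (adjusted p = 1.17e-06), 4 members against 48.6%. Of these, the Nab2 difference fell under the fold threshold without activated tTreg replicate 1 (log2 0.45) and in edgeR (0.49). Without the same library Nr4a3 and Egr1 were called lower in activated tTregs (log2 -0.71 and -0.71, adjusted p = 0.0432 and 0.0444).

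Restimulated iTregs against activated tTregs had 4 members called, against a background of 59.3%. Egr2 was 5.03-fold higher in iTregs (adjusted p = 2.00e-06), Nr4a1 4.32-fold lower (adjusted p = 4.73e-10), Tox 8.70-fold lower (adjusted p = 1.48e-13) and Nr4a3 1.57-fold lower (adjusted p = 0.0388). The Nr4a3 libraries overlapped, and its call was lost when activated tTreg replicate 1 or 3 or any restimulated iTreg library was left out (adjusted p 0.0504 to 0.214). Nr4a2 was higher in every restimulated iTreg library but not called by limma (log2 0.75, adjusted p = 0.0577), while edgeR (adjusted p = 0.0374), DESeq2 (0.0341), the fit of only these groups (0.0138) and a pseudocount of 5 (0.0314) called it. Resting iTregs were also set against activated Tconvs, since both had been stimulated through the TCR. The iTregs were lower in Nr4a1 (1.62-fold), Nr4a2 (2.28-fold), Nr4a3 (5.06-fold) and Tox (4.27-fold) and higher in Nab2 (1.55-fold), 5 of 7 members against 42.6%, with adjusted p of 0.00587 or lower. Egr2 libraries were apart there but not called (log2 -0.66, adjusted p = 0.0946), though edgeR and DESeq2 called it (adjusted p = 0.0163 and 0.0406).

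Per transcript length, the makeup of the NR4A family changed with the cell state. Levels here are TPM, reads scaled by exon length and depth, from recovered reads and GENCODE exon lengths. The summed NR4A level was 1.25 ± 0.21 TPM (SD, n = 3) in resting Tconvs and 12.4 ± 0.43 in activated Tconvs. It was 38.2 ± 3.25 in resting and 34.5 ± 4.26 in activated tTregs, and 5.36 ± 0.36 in resting and 11.5 ± 0.78 in restimulated iTregs. Thus restimulated iTregs and activated Tconvs came close in sum and remained below every tTreg library in TPM. The size of that tTreg excess depends on the scale, as TPM and size factors weigh tTreg libraries differently. Mean Nr4a2 was lower in resting tTregs than in activated Tconvs after size-factor scaling (42.2 against 57.6), but higher in TPM (3.82 against 3.44). For Nr4a1 the same pair of means was 297 against 65.5 after size-factor scaling, and 31.0 against 4.50 in TPM. Nr4a1 made up 81.2% ± 3.49 of the sum in resting tTregs and 76.6% ± 3.21 in activated ones. In Tconvs its share went from 65.0% ± 5.68 at rest to 36.4% ± 3.24, so that Nr4a3 (36.0% ± 1.35) was as abundant as Nr4a1 and Nr4a2 made up 27.7% ± 3.88. In restimulated iTregs Nr4a2 (42.0% ± 0.88) and Nr4a1 (40.2% ± 0.50) were the main members and Nr4a3 was 17.8% ± 0.86. With 3 libraries against 3, an exact permutation test could not go below 0.1, and these shares are given as a description.

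**Figure D3:**
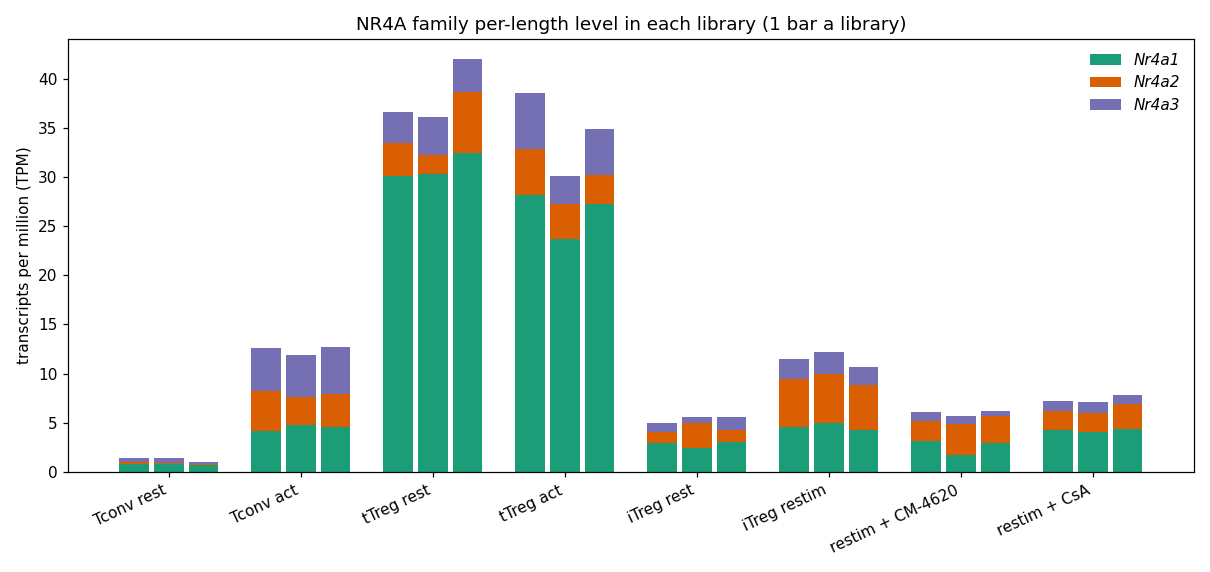
Per-length level in TPM (vertical axis) of Nr4a1, Nr4a2 and Nr4a3, stacked, with 1 bar for each of the 24 libraries by group. tTreg bars are mostly Nr4a1 (81.2% and 76.6% on average), and bars of activated Tconvs and restimulated iTregs hold larger shares of Nr4a2 and Nr4a3.

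Among EGR genes the makeup differed in the same per-length terms. Egr1 was 84.3% ± 1.07 of the EGR sum in resting Tconvs and 19.5% ± 4.37 in activated Tconvs, where Egr2 was 79.0% ± 3.70. In resting iTregs Egr2 was already 71.2% ± 3.13, and it was 77.4% ± 4.41 after restimulation. In resting tTregs Egr1 (58.4% ± 4.97) was above Egr2 (35.8% ± 8.07) in every library. After activation both overlapped, with Egr1 at 51.1% ± 15.4 and Egr2 at 46.6% ± 16.8. Egr3 made up 0.548% to 8.64% on average in the 8 groups.

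CM-4620 lowered Nr4a1 and Nr4a3 in restimulated iTregs. Nr4a3 was at 24.5, 22.0 and 14.0 normalized counts with CM-4620, against 52.4, 54.9 and 44.5 without (log2 -1.31 ± 0.28 SE, adjusted p = 0.00811). Nr4a1 was at 46.9, 25.5 and 43.9 against 66.5, 71.7 and 62.7 (log2 -0.82 ± 0.17, adjusted p = 0.00824). Both calls rest partly on 1 library. Without CM-4620 replicate 2 the Nr4a1 value was log2 -0.55 (adjusted p = 0.0538), and without CM-4620 replicate 3 the Nr4a3 value was -1.09 (adjusted p = 0.0621). When only the groups compared were fitted, the Nr4a1 call was lost (adjusted p = 0.105) and Nr4a2 and Egr2 were called (adjusted p = 0.0327 and 0.0347). In count, 2 of 7 members were called, where 1.98% of all tested genes were.

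Nr4a2 and Egr2 were lower with CM-4620 in every library without passing the threshold. Nr4a2 was at 34.7, 51.9 and 45.6 normalized counts (log2 -0.88 ± 0.35 SE, adjusted p = 0.22) and Egr2 at 37.7, 42.2 and 28.1 (log2 -1.07 ± 0.33, adjusted p = 0.0872). Their treated libraries all lay under the restimulated ones. In edgeR and DESeq2 on recovered reads, Egr2 passed (adjusted p = 0.024 and 0.0119) and Nr4a2 did not. Egr1 (log2 -0.38, interval -1.01 to 0.24), Nab2 (-0.11, -0.36 to 0.15) and Tox (0.19, -0.14 to 0.51) were not called.

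CsA lowered Nr4a3 and Egr2, and Nr4a1 was not called. Nr4a3 was at 23.5, 27.7 and 22.4 normalized counts (log2 -1.01 ± 0.28 SE, adjusted p = 0.0465) and Egr2 at 44.0, 36.9 and 20.0 (log2 -1.21 ± 0.33, adjusted p = 0.047). Both were close to the threshold. The Nr4a3 call was lost whichever of the 6 libraries was left out (adjusted p 0.0837 to 0.161) and with replicate number as a block (adjusted p = 0.0587), and the Egr2 call was lost for 5 of the 6 (0.0723 to 0.242). Nr4a2 was at 32.7, 33.9 and 43.2, below all restimulated libraries (log2 -1.13 ± 0.35, adjusted p = 0.0874), and it passed in edgeR and DESeq2 (adjusted p = 0.032 and 0.0138). Nr4a1 was at 63.4, 60.6 and 64.0 with CsA and overlapped the untreated libraries (log2 -0.09, interval -0.45 to 0.26). With 2 of 7 members called, the background was 1.59%. Both inhibitor comparisons share the restimulated libraries.

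Nr4a1 was thus the member in which both inhibitors stood farthest apart. CM-4620 libraries held 25.5 to 46.9 normalized counts and CsA libraries 60.6 to 64.0, with no overlap (log2 difference -0.72 ± 0.17 SE, interval -1.08 to -0.37). After adjustment over all genes this difference was not called (adjusted p = 0.12). limma called 0 of 7 members between the inhibitors, against a background of 0.0853%, and Nr4a1 was the only member with an unadjusted p under 0.05. edgeR and DESeq2 called 0. For Nr4a2, Nr4a3 and Egr2 the intervals of the difference were -0.47 to 0.98, -0.87 to 0.27 and -0.54 to 0.84.

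**Figure D4:**
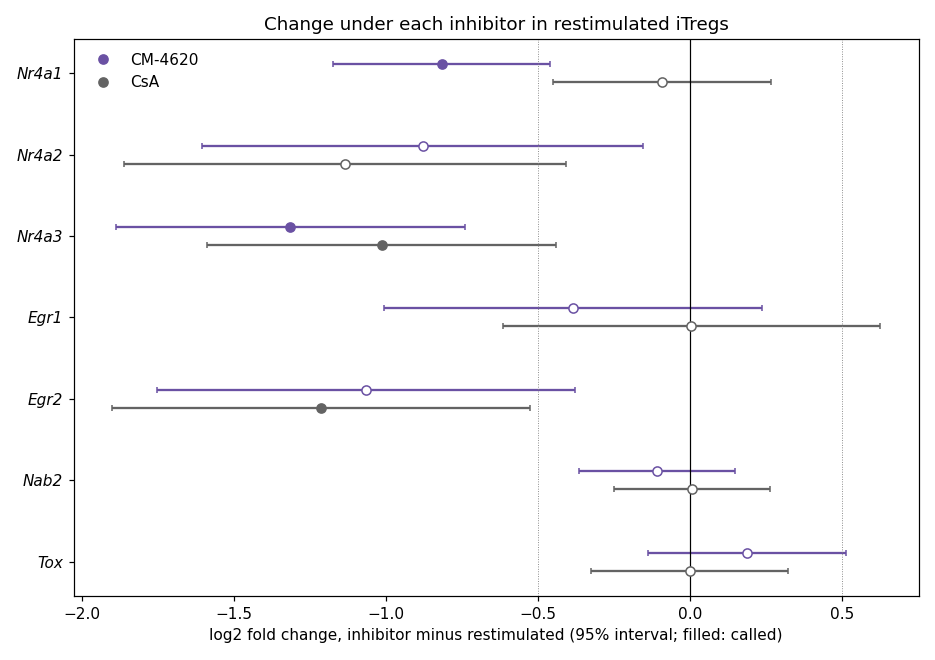
Log2 fold changes of the 7 tested members under CM-4620 and CsA relative to restimulated iTregs (horizontal axis), with 95% intervals; filled points passed the test and dotted lines mark 0.5 in either direction. Nr4a1 is the gene where the CM-4620 point (-0.82) and the CsA point (-0.09) lie farthest apart.

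Set against resting iTregs, the treated cells show what was left of the rise. On the scale of normalized counts, the Nr4a3 level under CM-4620 stood at -6.19% ± 19.1 (SD, n = 3) of the mean rise, and that under CsA at 9.03% ± 9.79. For Nr4a1 the CM-4620 level was -4.87% ± 43.1 and the CsA level 83.9% ± 6.80 of its rise. For Nr4a2 they were 32.5% ± 15.98 and 18.8% ± 10.5. These percentages take the untreated means as fixed. None of 7 members was called between CM-4620-treated and resting iTregs, against 5.11% of genes. limma gave 1 of them, Nr4a2, an unadjusted p under 0.05, and edgeR and DESeq2 called 0. CsA-treated iTregs differed from resting ones in Nr4a1 alone (1.55-fold higher, adjusted p = 0.0158), 1 of 7 against 7.04%, and that call was lost without resting iTreg replicate 2 (adjusted p = 0.0734) or CsA replicate 3 (0.0539). Egr2 under either inhibitor lay below every resting iTreg library, at 28.1 to 42.2 with CM-4620 and 20.0 to 44.0 with CsA, yet neither difference was called (log2 -0.57 and -0.72, adjusted p = 0.333 and 0.165).

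Relatives of the members outside the set were mostly low or flat. Of Egr4, Nab1, Tox2, Tox3 and Tox4, only Nab1 (the other NAB corepressor) and Tox4 reached the level needed for a test. Egr4 had no read in any library, which at 3 reads a library is all that can be said, and Tox2 had group means of 0.506 to 6.86 normalized counts. Nab1 fell on tTreg activation, from 193 ± 34.9 to 133 ± 29.1 (log2 -0.54 ± 0.15 SE, adjusted p = 0.00771), and was not called in Tconvs or on iTreg restimulation. The fall of Nab1 was close to the fold threshold. Its libraries overlapped, at 156 to 225 normalized counts in resting and 109 to 166 in activated tTregs. Neither Nab1 nor Tox4 was called under an inhibitor.

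Other genes that TCR signals induce in T cells were counted in the same comparisons. Of 15 such genes, all tested, 7 rose and 3 fell in activated Tconvs (50.3% of all tested genes were called), with a median log2 fold change of 0.53 against -0.03 over all tested genes. Irf4, a factor induced in proportion to TCR signal, rose by 6.98 on the log2 scale, and Il2ra (the IL-2 receptor alpha chain), Tnfrsf9 (the costimulatory receptor 4-1BB) and Cd69 (an early activation marker) by 6.74, 4.72 and 3.20. In tTregs 6 rose and 1 fell (background 23.2%), with a median of -0.03 against 0 over all genes. The AP-1 factor genes Junb (log2 1.17) and Batf (0.91) rose there, as did Ier3 (1.07), while Fosl2, also an AP-1 gene, fell by 1.36. The Junb libraries overlapped, at 566 to 3763 normalized counts in resting and 2932 to 6011 in activated tTregs. Ier3 held 11 summed reads in resting tTregs, near the floor, and 23 in activated ones. On iTreg restimulation 4 rose and 1 fell (background 10.4%, median 0.05 against -0.01), led by Fosl2 (1.39), Tnfrsf9 (1.12), Ier3 (0.92) and Irf4 (0.82). CM-4620 lowered 2, Tnfrsf9 (-1.06) and Fosl2 (-0.94), and CsA lowered 3, Tnfrsf9 (-0.88), Irf4 (-0.57) and Fosl2 (-0.54), and raised Nfkbid (0.65), where 1.98% and 1.59% of all genes were called. The medians under the inhibitors were -0.06 and -0.08, against 0.0083 and -0.0017 over all genes.

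Restraint genes linked to EGR2 and EGR3 made up another list. Of 14 listed, 13 could be tested (Rnf128 could not), and 6 rose and 7 fell on Tconv activation, with a median of log2 -0.58 against -0.03 over all tested genes, of which 50.3% were called (2913 higher and 2990 lower). Cdkn1a (the cell cycle inhibitor p21, log2 3.94), Socs1 (a suppressor of cytokine signaling, 2.80) and Nrn1 (neuritin, 2.55) rose, and Nt5e (the ectonucleotidase CD73, -2.55) fell. In tTregs Cdkn1a rose (1.58) and Fasl (the death ligand, -1.10) fell, and the other 11 did not pass (median -0.18 against 0, background 23.2%). Fasl was low there and its libraries overlapped, at 19.5 to 28.1 normalized counts at rest and 4.04 to 20.0 after activation. iTreg restimulation raised Fasl (1.87) and Cblb (a ubiquitin ligase, 0.75), with a median of -0.03 against -0.01 and a background of 10.4%. CM-4620 lowered Fasl (-1.42), Ndrg1 (-0.77) and Cblb (-0.58), and CsA lowered Fasl (-1.19), with medians of -0.01 and 0.09 and backgrounds of 1.98% and 1.59%. Fasl and Cblb, which rose on restimulation, were both lower with CM-4620, as Nr4a1 and Nr4a3 were, while Cblb was not called with CsA. The rise and the fall share the restimulated libraries. A gene picked for its rise therefore tends to appear lower under an inhibitor, and no conclusion is drawn from this match.

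Inhibitory receptor genes linked to NR4A and TOX factors were counted likewise. Of 10 listed, 9 were tested (Cd244a was not), and 3 rose and 3 fell on Tconv activation, with a median of log2 -0.14 against -0.03 over all tested genes. With 50.3% of all genes called there, this count is near the background. Lag3 (4.98), Havcr2, which encodes TIM-3 (3.47), and Ctla4 (1.66) rose, whereas Pdcd1, which encodes PD-1, fell by 1.67. Havcr2 held 11 summed reads in resting Tconvs, near the floor, so the size of its rise depends on the pseudocount. In tTregs Lag3 (2.86) and Havcr2 (0.74) rose and Pdcd1 fell by 0.87, with a median of -0.11 against 0 and a background of 23.2%. Restimulated iTregs had higher Tigit (1.40) and Lag3 (1.10), with a median of 0.24 against -0.01 and a background of 10.4%. CM-4620 lowered Tigit (-0.84, median -0.15, background 1.98%), and CsA raised Havcr2 (1.84, median -0.07, background 1.59%).

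Of 7 Treg genes linked to NR4A factors, 6 rose and 1 fell in activated Tconvs, with a median of log2 1.96 against -0.03 over all tested genes and a background of 50.3%. Il2ra rose most (6.74), then Lrrc32, a TGF-β docking receptor (3.51), Tnfrsf18, which encodes GITR (2.14), and Ikzf4, which encodes Eos (1.96). Lrrc32 held 23 summed reads in resting Tconvs, so the size of its rise also depends on the pseudocount. On tTreg activation, where the background was 23.2%, the median was -0.06 against 0 and no gene passed both thresholds, although Ikzf2 (Helios, log2 -0.49, adjusted p = 0.0076) and Ctla4 (-0.44, adjusted p = 0.0138) passed on p alone. In restimulated iTregs, where all 3 NR4A genes rose, Foxp3 fell by 0.85 and Lrrc32 by 0.94 (median -0.26 against -0.01, background 10.4%). Lrrc32 was higher with either inhibitor (log2 0.74 with CM-4620 and 0.71 with CsA), and the other 6 were not called, with medians of 0.02 and 0.04 and backgrounds of 1.98% and 1.59%.

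Genes whose pattern over the 8 group means was most like that of a member were ranked by Pearson's r among the 8484 tested genes whose group means spanned at least 1 on the log2 scale. For Egr2 these were Trap1 (r = 0.96), Ppp3cc, which encodes a catalytic subunit of calcineurin (0.96), and Slc19a1 (0.96). Ppp3cc went from 84.3 normalized counts in resting to 517 in activated Tconvs, was at 94.9 and 102 in resting and activated tTregs, and at 273 and 304 in resting and restimulated iTregs. For Nr4a3 they were Casz1, Stat5a and Kif3b (r = 0.94 each), where Stat5a, a transducer of IL-2 signals, went from 731 to 3322 in Tconvs. For Nr4a1 they were Agtpbp1, Colq and Pctp (0.99, 0.98 and 0.98), all highest in tTregs, and for Nr4a2 Rgs1, Cd200 and Wdr59 (0.97 each). Kctd6, Nemp2 and Cnga1 were most like Egr1 (0.99, 0.98 and 0.96), Plpp1, Arfgef3 and Rhoq most like Nab2 (0.98 each), and Oas1a, Zfp709 and Ddx5 most like Tox (all 1.00 after rounding). These r values describe 8 points that share libraries across genes, were the highest among all candidates, and carry no p. Over the 24 single libraries by Spearman's rho, 4 of these 21 genes stayed among the top 3, Stat5a and Kif3b for Nr4a3 (rho 0.90 and 0.89) and Trap1 and Ppp3cc for Egr2 (0.94 and 0.93).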

How the data were processed

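The libraries were made by a modified SMART-seq2 protocol and PCR amplified without molecular identifiers, and libraries of this kind do not keep strand. Per the labels and the study's methods, the authors trimmed reads with cutadapt 1.18, aligned them with STAR 2.5.3 and counted them on genes with RSEM 1.3.0 (GRCm38). The authors deposited a normalized signal, gene counts divided by 1 size factor per library over 24 libraries. After division by each library's smallest value, 100% of the values were whole numbers within 0.001, and these recovered reads were used for depth, TPM, edgeR and DESeq2. The 8 genes, the gene lists and the tests were chosen with earlier results of these data known. Genes named besides the members were the 3 most alike in pattern, and at most 4 of each list by size among those called. Genes that reached 10 normalized counts in 3 or more of 24 libraries were fitted together over all libraries as log2(normalized count + 1), using limma 3.58.1 under R 4.3.3 and a prior variance that follows mean level. Thresholds, an adjusted p of 0.05 and a log2 fold change of 0.5, follow the study's methods. On simulated reads for Tconv activation over 11725 genes, 173 of 200 genes changed 2-fold were called, with 3 false calls. The simulation gave every gene the same dispersion and took the changed genes above a set mean level. It therefore does not give the share of real changes found in these data. No replicate was a copy of another, with 2.79 to 39.4 times the variance of counting. Gene models came from GENCODE vM21, an older release than the study's of the same build, and 98.95% of genes matched by name. Alternatives covered quantile normalization and further scalings, a pseudocount of 0.1 or 5, a filter of 100 or none, other sets of libraries in the fit, other thresholds, a replicate block, edgeR 4.0.16, DESeq2 1.42.0 and each library left out. The 16 chromatin samples of the series were not analysed here. The summed level of the B cell marker list is not reported here.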

Additional observations from a re-analysis of the deposited data

Results flagged for a closer look

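The response to stimulation differed between cell types in 10 tests of members, each a difference of log2 changes called in limma. Relative to Tconvs, tTregs responded less in Nr4a1 (-2.52), Nr4a2 (-4.06), Nr4a3 (-3.28) and Egr2 (-3.47). Restimulated iTregs also responded less than Tconvs in Nr4a1 (-1.77), Nr4a2 (-2.69), Nr4a3 (-2.56) and Egr2 (-3.002). Relative to tTregs, iTregs responded more in Nr4a1 (0.75) and Nr4a2 (1.37). The first 8 kept their call in all fits in which the gene was tested. The size of both Nr4a2 differences from Tconvs depends on the pseudocount, as resting Tconvs held 6 Nr4a2 reads. Of the last pair, Nr4a2 lost its call in most fits that left out 1 library, and Nr4a1 in fewer. The Nr4a2 call was also lost with a pseudocount of 0.1, no filter, only the groups compared or the replicate block (limma adjusted p 0.0567 to 0.108). Starting levels differed as well, as Nr4a1 stood at 297 ± 9.74 normalized counts (SD, n = 3) in resting tTregs and at 10.7 ± 0.94 in resting Tconvs. The part of the starting level in these differences was not tested.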

How the results depend on the processing

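Of 1092 values of called members under 37 other settings, 1018 kept their call, 74 lost it and 0 reversed. Of 1303 uncalled values, 43 had the other sign, none beyond log2 0.378 in size. Counts of called members moved by over 1.5 times as follows. A filter of 100, which leaves several members untested, gave 2 on Tconv activation, 2 for each unequal response against Tconv, 1 for that of iTreg against tTreg, 4 for resting iTreg against resting Tconv and 1 by CsA. A pseudocount of 0.1 or no filter gave 0 by CsA and 1 for iTreg against tTreg, which was also 1 in the fit of only the groups compared. A log2 fold threshold of 1 gave 3 for resting tTreg against resting Tconv, 3 for resting iTreg against activated Tconv, 2 for activated tTreg against activated Tconv, 1 by CM-4620, 1 for the unequal response of iTreg and tTreg, and 0 for CsA against resting iTreg. The separate fit of 12 libraries gave 1 for CM-4620 against resting iTreg, Nr4a2. Groups share replicate numbers, but in 0 of 28 group pairs did all same-numbered libraries deviate together (r above 0.1). The mean r of same-numbered libraries was -0.248 to 0.153 over all pairs and 0.0870 to 0.126 in the 6 pairs of iTreg groups. A link too weak for this rule was not tested. With the replicate block, CsA gave 1 (Egr2) and the unequal response of iTreg and tTreg 1 (Nr4a1), and no other count moved so far. Leaving out 1 library at a time gave 0 to 1 members on tTreg activation, 0 to 1 by CsA and 1 to 2 by CM-4620. It gave 0 to 2 for the unequal response of iTreg and tTreg, and 0 to 1 for CsA against resting iTreg. Of the 21 genes most like a member, 4 stayed with Spearman correlation over libraries. Quantile normalization moved the median of all genes between resting iTreg and resting Tconv from 0.0397 to -0.114. Egr3 and resting Tconv Nr4a2 were limited by depth.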
